A study of Mus musculus with 12 samples.

Results

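The 10 genes described here carry arginine into the polyamines: the arginases Arg1 and Arg2, ornithine decarboxylase Odc1, the antizymes Oaz1 and Oaz2, the antizyme inhibitor Azin1, the S-adenosylmethionine decarboxylase Amd1, the synthases Srm and Sms, and the acetyltransferase Sat1. They were chosen by name for their place in the pathway, out of 49315 genes in the count table, and each symbol matched 1 Ensembl identifier. RNA was sequenced from 2 cell types of C57BL/6 mice in 4 groups of 3 libraries. Group 2 innate lymphoid cells (ILC2s, tissue lymphocytes that make type 2 cytokines) came from lung by negative bead selection and sorting, were first grown on a mix of IL-25, IL-33, IL-2 and IL-7, then for 48 h on IL-2 plus IL-7 only, and were washed. Eosinophils (granulocytes of type 2 immunity) came from blood as the cells not retained on B220 and CD90 columns, were kept for 24 h with IL-33 and washed. Both were then held for 24 h in medium without added cytokines, either alone or together, and separated by flow cytometry. The groups are ILC2s alone, ILC2s with eosinophils, eosinophils alone and eosinophils with ILC2s. No group holds eosinophils without earlier IL-33, and the labels do not say whether the 3 libraries of a group came from separate animals or cultures, so the spread behind each p-value is that between libraries and may be technical.

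Arginase splits arginine into ornithine and urea, and ornithine decarboxylase turns ornithine into putrescine, the step usually taken as rate-limiting for polyamine synthesis. Aminopropyl groups from decarboxylated S-adenosylmethionine extend putrescine to spermidine and then to spermine. Polyamines induce a ribosomal frameshift that makes antizyme, which binds ornithine decarboxylase and sends it to the proteasome, while antizyme inhibitor binds antizyme in its place. In lung ILC2s Arg1 is known as the abundant arginase.

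In ILC2s, RNA of the synthesis steps was higher after culture with eosinophils: Srm 4.06-fold, Odc1 3.56-fold, Amd1 1.59-fold and Sms 1.47-fold. Sat1, which acetylates spermidine and spermine for export or breakdown, was 2.26-fold lower. In eosinophils cultured with ILC2s, Odc1 was 1.23-fold lower and Oaz2 1.29-fold higher. Arg1 was 2.49-fold lower there, from low counts, and Azin1 1.18-fold lower, both calls that depended on single libraries. Srm, Sms, Sat1, Amd1, Oaz1 and Arg2 did not pass the test in eosinophils. Arg1 was an ILC2 transcript in both culture conditions.

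The RefSeq promoter table (GRCm38.p6, the mm10 build of the counts) held windows from 250 bases before to 50 after the transcript start for 6 members: Odc1, Sat1, Sms, Amd1, Oaz1 and Oaz2. The stretches before the annotated gene start are shown for Odc1 and Sms, which rose in cocultured ILC2s, and for Sat1, which fell there. Capitals mark GGGCGG or its reverse complement CCGCCC (the GC box core) in Odc1 and Sat1, and CACGTG (the palindromic E-box that MYC family factors can bind) in Sms.
Odc1, chr12:17544623-17544793, plus strand: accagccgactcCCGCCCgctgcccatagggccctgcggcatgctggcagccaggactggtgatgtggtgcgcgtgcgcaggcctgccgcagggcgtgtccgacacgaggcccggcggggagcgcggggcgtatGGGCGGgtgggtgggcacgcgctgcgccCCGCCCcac
Sat1, chrX:155216450-155216699, minus strand: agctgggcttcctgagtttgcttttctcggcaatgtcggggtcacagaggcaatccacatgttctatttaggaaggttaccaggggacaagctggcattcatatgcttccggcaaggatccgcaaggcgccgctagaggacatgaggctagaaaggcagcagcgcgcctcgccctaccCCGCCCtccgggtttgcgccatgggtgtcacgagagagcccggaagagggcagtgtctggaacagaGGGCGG
Sms, chrX:157492288-157492537, minus strand: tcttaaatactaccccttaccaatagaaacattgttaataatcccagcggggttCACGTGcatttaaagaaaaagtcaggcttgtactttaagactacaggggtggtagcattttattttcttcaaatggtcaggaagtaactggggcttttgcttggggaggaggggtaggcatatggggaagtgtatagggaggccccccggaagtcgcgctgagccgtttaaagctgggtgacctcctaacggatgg
The 6 matched members had 7 windows, with a second one for Sms. Searched on both strands, CACGTG occurred in 7.15% of the 32817 windows of the table and in 1 of the 7 member windows. This was the printed window of Sms, 196 bases before the RefSeq start. The STAT motif TTCNNNGAA occurred in 8.29% of all windows, its form with 4 bases between TTC and GAA in 6.94%, and neither in a member window. GGGCGG, added to the search after the sequences were seen, occurred in 35.6% of all windows and in 5 of the 7 member windows. These were the windows of Amd1, Oaz2, Odc1 and Sat1 and the second window of Sms. Motifs of different kinds did not overlap in the printed stretches. The printed Odc1 stretch held 3 GC box cores and that of Sat1 held 2, so a motif of this kind stood before a gene that rose and a gene that fell.

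Library totals were 16769929 to 22928961 counts, so 3 counts correspond to 0.131 to 0.179 CPM (counts of a gene scaled to the library total). Levels below are CPM scaled by the trimmed mean of M values (TMM) over all 12 libraries. Sums and shares over cell type markers use library totals instead, so they are on another scale than the levels of single genes. Gata3, a transcription factor that ILC2s need, was at 687 to 759 CPM in the 6 ILC2 libraries and at 0.225 to 2.27 CPM in the 6 eosinophil libraries. Siglecf, an eosinophil surface lectin, was at 1350 to 1390 CPM in eosinophil libraries and 0.174 to 0.355 CPM in ILC2 libraries, so both labels matched their markers. Macrophage and monocyte markers, which matter for Arg1, summed to 0.81 to 1.14 CPM over 12 genes in the ILC2 libraries, with none of the 12 reaching 1 CPM in a group mean and Marco and Vsig4 without a count. In eosinophil libraries they summed to 421 to 466 CPM alone and 438 to 465 CPM with ILC2s. Most of this was Csf1r, with means of 369 and 411 CPM by library totals. The sum hides markers that moved in opposite directions, without overlap. Ly6c2 was lower, with a mean of 49.4 CPM alone and 23.1 CPM with ILC2s, as was Fcgr1, at 34.9 and 17.7 CPM. At low levels C1qa was lower too (0.255 and 0.0377 CPM). Mrc1 (0.259 and 0.68 CPM) and C1qb (0.13 and 0.485 CPM) were higher with ILC2s. Csf1r had means of 441 and 481 CPM, and its values overlapped. In RNA from a pool of cells, fewer cells with a transcript and less of it per cell cannot be told apart.

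**Figure D1:**
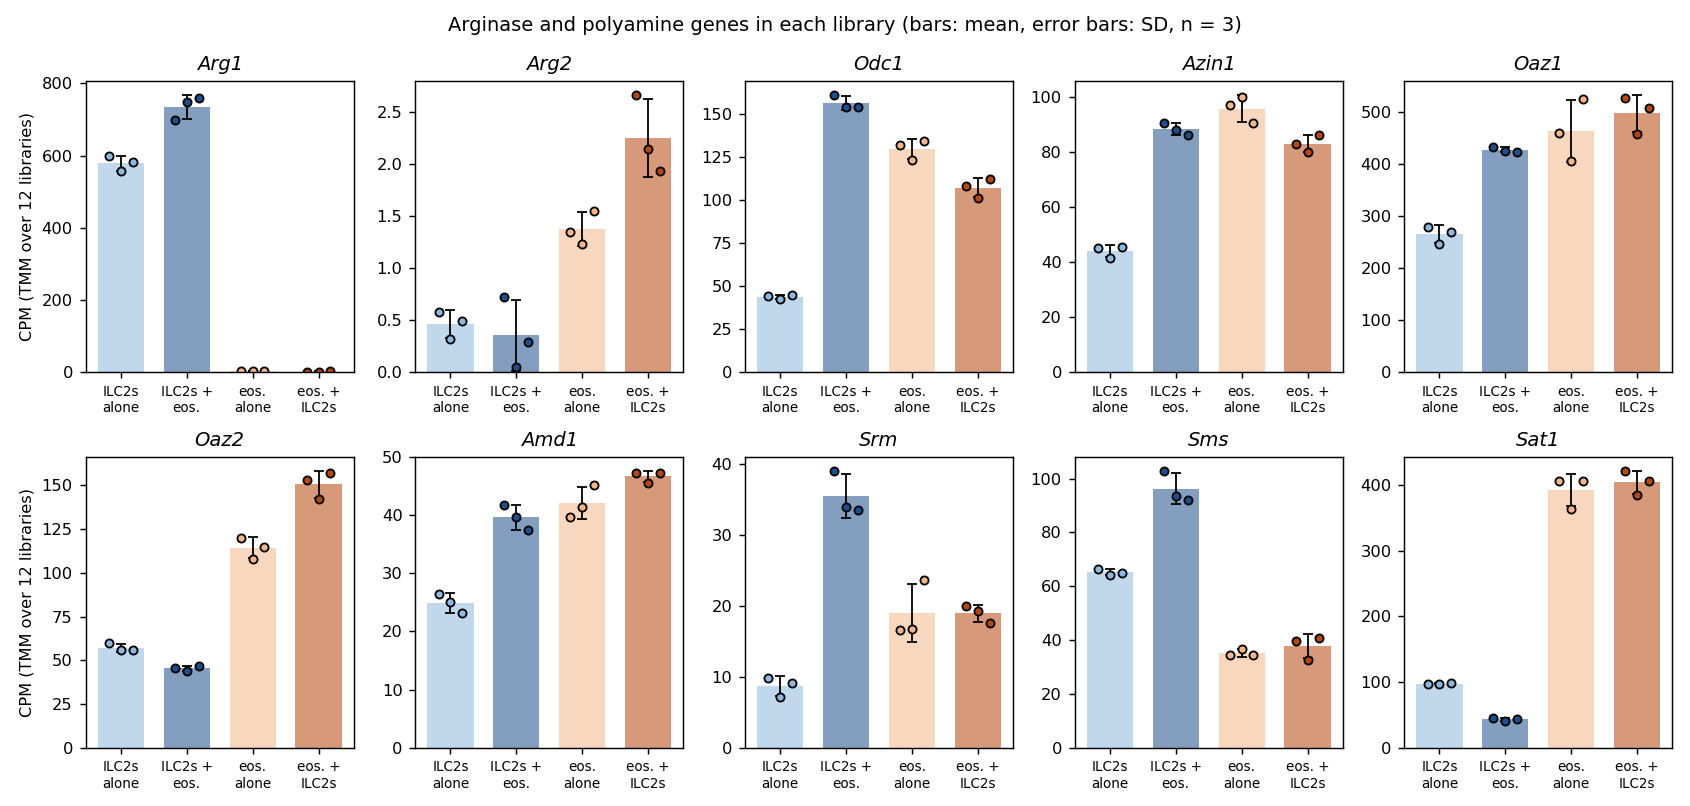
CPM of each of the 10 genes in every library, scaled by TMM over all 12 libraries, on linear axes that start at 0, 1 panel per gene. Points are libraries, bars are means and error bars are SD (n = 3) for each of the 4 groups. Arg1 lies above 550 CPM in all ILC2 libraries and below 4 CPM in all eosinophil libraries, and Odc1 and Srm are highest in ILC2s with eosinophils.

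Arg1, the cytosolic arginase (ENSMUSG00000019987, chr10:24915221-24927484, minus strand), was at 598, 556 and 581 CPM in ILC2s alone and 698, 749 and 759 CPM in ILC2s with eosinophils. Every cocultured ILC2 library was above every library of ILC2s alone. The log2 fold change was 0.34 (SE 0.04, edgeR adjusted p = 1.2e-08). It was thus a small rise from a high level. In eosinophils Arg1 was at 3.94, 2.15 and 2.47 CPM alone and at 0.864, 0.956 and 1.65 CPM with ILC2s, from 134 and 60 counts over 3 libraries each. The cocultured eosinophil libraries were all lower, with a log2 fold change of -1.32 (SE 0.35, edgeR adjusted p = 0.0144). The call was lost without the first library of eosinophils alone (edgeR adjusted p = 0.0894) and without the first or the second of eosinophils with ILC2s (0.061 and 0.0566).

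ILC2 RNA in the eosinophil libraries lay near this level of Arg1. The median level of 11 ILC2 markers there, as a share of that in cocultured ILC2s, was 0.0822% ± 0.0362 (SD, n = 3) with ILC2s and 0.124% ± 0.0586 (SD, n = 3) alone, and an exact two-sided permutation test gave p = 0.5, where 0.1 is the smallest it can give. Taken as the ratio of summed levels of the same 11 markers, the share was 0.0773% ± 0.0154 (SD, n = 3) with ILC2s and 0.143% ± 0.0398 (SD, n = 3) alone (exact two-sided permutation p = 0.1), lower in all 3 cocultured libraries. Multiplied by the Arg1 level of cocultured ILC2s, the median shares amount to 0.675 and 1.02 CPM by library totals, beside measured means of 0.987 CPM with ILC2s and 2.40 CPM alone. Gata3 in the same libraries was at 2.27, 0.985 and 1.11 CPM alone and at 0.494, 0.225 and 0.227 CPM with ILC2s, so the first library of eosinophils alone was highest for both genes. The 10 basophil and mast cell markers summed to 183 to 210 CPM in eosinophils alone and to 96.3 to 105 CPM with ILC2s. Most of this fall was in Gata2, with means of 154 and 80.3 CPM by library totals (184 and 94.1 CPM by TMM). Hdc fell as well (40.1 and 16.7 CPM by TMM). Fcer1a was also lower, at 4.44 and 1.96 CPM. The means of Ms4a2 (3.36 and 4.07 CPM) and Cma1 (0.272 and 0.463 CPM) were higher with ILC2s. Mcpt4 had no count in either group. Neutrophil markers, summed over 9 genes, went from 13.8 to 18.4 CPM alone to 10.9 to 11.8 CPM with ILC2s, with Camp without a count in both groups. Among them S100a8 was at 5.94, 3.51 and 4.08 CPM alone and at 1.23, 1.07 and 1.65 CPM with ILC2s, again highest in the first library of eosinophils alone. Ngp and Mmp8 went the other way. Ngp had means of 4.42 CPM alone and 4.76 CPM with ILC2s, and Mmp8 0.483 and 2.24 CPM. Within eosinophils alone both were highest in the third library. Of the macrophage and monocyte markers, Ly6c2, Fcgr1 and C1qa were lower with ILC2s, and Mrc1 and C1qb were higher. The part of these RNAs in the fall of Arg1 was not tested.

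Between cell types, Arg1 was 205-fold higher in ILC2s alone than in eosinophils alone (log2 fold change 7.68, SE 0.12, edgeR adjusted p = 1.1e-16). Between the cocultured cells the difference was 625-fold (log2 fold change 9.29, SE 0.098, edgeR adjusted p = 5.5e-34). By library totals, the eosinophil means behind these folds were 2.40 CPM alone and 0.987 CPM with ILC2s. The median shares of ILC2 RNA amount to 1.02 and 0.675 CPM of Arg1 there, and their part in these folds was not tested. The order of the groups was ILC2s with eosinophils, ILC2s alone, eosinophils alone, eosinophils with ILC2s, and no neighbours in it overlapped.

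Arg2, the mitochondrial arginase (ENSMUSG00000021125, chr12:79130777-79156301, plus strand), was nearly absent from ILC2s, at 0.575, 0.315 and 0.488 CPM alone and 0.723, 0.0443 and 0.287 CPM with eosinophils. One of these libraries held 1 count. The ILC2 groups overlapped, and the log2 fold change of -0.38 (SE 0.55, edgeR adjusted p = 0.544) turned to 0.13 without the second library of ILC2s with eosinophils. In eosinophils it was at 1.34, 1.23 and 1.55 CPM alone and at 2.66, 2.14 and 1.93 CPM with ILC2s. These groups did not overlap, but the log2 fold change of 0.67 (SE 0.30) missed the threshold (edgeR adjusted p = 0.124). Arg2 was lower in ILC2s than in eosinophils alone (log2 fold change -1.56, SE 0.38, edgeR adjusted p = 0.00157) and in coculture (-2.65, SE 0.44, edgeR adjusted p = 2.7e-06), the latter -3.67 without the first library of ILC2s with eosinophils. In both comparisons Arg2 passed the filter on low counts only through the eosinophil libraries, where it is higher. ILC2 libraries held 12, 7 and 14 counts alone and 17, 1 and 7 with eosinophils. Its exons share 285 of 1428 bases with the antisense gene Vti1b, which had 19267 counts over all libraries against 238 for Arg2, and the strand setting of the counting is not given in the sources used here, so the Arg2 values are uncertain.

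Odc1, ornithine decarboxylase (ENSMUSG00000011179, chr12:17544794-17551505, plus strand), was at 44.1, 42.3 and 44.5 CPM in ILC2s alone and at 161, 154 and 154 CPM with eosinophils. The cocultured ILC2s went from the lowest Odc1 level of the 4 groups to the highest, with a log2 fold change of 1.83 (SE 0.044, edgeR adjusted p = 1.8e-24). Eosinophils held 132, 123 and 134 CPM alone and 108, 101 and 112 CPM with ILC2s. All 3 cocultured eosinophil libraries were lower, with a log2 fold change of -0.30 (SE 0.063, edgeR adjusted p = 0.00283). The cell type that had more Odc1 therefore changed with the culture: ILC2s were lower than eosinophils alone (log2 fold change -1.56, SE 0.061, edgeR adjusted p = 3.3e-12) and higher in coculture (0.53, SE 0.051, edgeR adjusted p = 1.1e-10). No 2 groups overlapped.

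Azin1, the antizyme inhibitor and an inactive relative of Odc1 (ENSMUSG00000037458, chr15:38487427-38519266, minus strand), was at 45.1, 41.5 and 45.4 CPM in ILC2s alone and 90.4, 88.0 and 86.2 CPM with eosinophils. All cocultured libraries were higher, by a log2 fold change of 0.99 (SE 0.05, edgeR adjusted p = 8.3e-17). In eosinophils it went from 96.8, 100 and 90.3 CPM alone to 82.9, 79.8 and 86.1 CPM with ILC2s, without overlap. The log2 fold change there was -0.24 (SE 0.068, edgeR adjusted p = 0.0204). This small fall missed the threshold without the first library of eosinophils alone (edgeR adjusted p = 0.0683), without the first or second of eosinophils with ILC2s (0.0727 and 0.0958), and when library totals replaced TMM (0.0658). Azin1 was lower in ILC2s than in eosinophils when each was alone (log2 fold change -1.11, SE 0.069, edgeR adjusted p = 8.4e-10). In coculture the cell types did not differ past the threshold (0.08, SE 0.053, edgeR adjusted p = 0.159), but Azin1 was called higher in ILC2s by upper quartile scaling (0.28, edgeR adjusted p = 2.3e-05) and by library totals (0.48, edgeR adjusted p = 3.1e-09). Azin1 exons share 358 of 6256 bases with the antisense gene Gm49077.

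The antizymes, which lower ornithine decarboxylase and polyamine uptake, parted in ILC2s. Oaz1 (ENSMUSG00000035242, chr10:80826656-80829290, plus strand) was at 280, 246 and 269 CPM in ILC2s alone and at 433, 426 and 424 CPM with eosinophils. The cocultured libraries were all higher, with a log2 fold change of 0.68 (SE 0.042, edgeR adjusted p = 9.4e-15). Oaz2 (ENSMUSG00000040652, chr9:65668001-65690300, plus strand) was at 59.9, 55.8 and 55.9 CPM alone and at 45.5, 43.8 and 46.7 CPM with eosinophils. It fell by 0.34 on the log2 scale (SE 0.054, edgeR adjusted p = 1.9e-06), in all 3 cocultured libraries.

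In eosinophils Oaz2 was the member that rose with coculture. It was at 120, 108 and 115 CPM alone and at 153, 142 and 157 CPM with ILC2s, without overlap (log2 fold change 0.37, SE 0.064, edgeR adjusted p = 7.2e-04). Oaz1 was at 460, 406 and 526 CPM alone and at 527, 458 and 508 CPM with ILC2s. These values overlapped, with a log2 fold change of 0.07 (SE 0.081, edgeR adjusted p = 0.572). Both antizymes were lower in ILC2s than in eosinophils alone, Oaz1 by 1.74-fold (edgeR adjusted p = 2.3e-07) and Oaz2 by 1.99-fold (edgeR adjusted p = 1.2e-09). Cocultured ILC2s had 3.34-fold less Oaz2 than cocultured eosinophils (edgeR adjusted p = 4.0e-22). For Oaz1 that comparison depended on scaling: the log2 fold change was -0.23 (edgeR adjusted p = 1.3e-04), -0.03 with upper quartile scaling (edgeR adjusted p = 0.611) and 0.17 with library totals (edgeR adjusted p = 0.00227). The Oaz1 copy Oaz1-ps had 1828 counts over all libraries, 1.89% of those of Oaz1, and Oaz2-ps had 127 counts, 0.621% of those of Oaz2, so reads shared with copies leave some uncertainty. Antizyme is made by frameshifting, which counts of RNA do not measure.

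Amd1 makes the aminopropyl donor (ENSMUSG00000075232, chr10:40287458-40302186, minus strand) and was at 26.5, 25.1 and 23.1 CPM in ILC2s alone and 41.8, 39.6 and 37.5 CPM with eosinophils. All 3 cocultured libraries were higher (log2 fold change 0.67, SE 0.069, edgeR adjusted p = 9.0e-10). In eosinophils it was at 39.7, 41.4 and 45.1 CPM alone and at 47.3, 45.6 and 47.2 CPM with ILC2s. These values lay close together without overlap, and the log2 fold change of 0.12 (SE 0.073) missed the threshold (edgeR adjusted p = 0.268). ILC2s alone had less Amd1 than eosinophils alone (log2 fold change -0.75, SE 0.082, edgeR adjusted p = 7.0e-07), a call that library totals removed (-0.18, edgeR adjusted p = 0.0504). Between the cocultured cells the log2 fold change was -0.25 (edgeR adjusted p = 0.0012), -0.05 with upper quartile scaling (edgeR adjusted p = 0.506) and 0.15 with library totals (edgeR adjusted p = 0.0399), so its direction there depends on scaling. The copy Amd2 had 72 counts over all libraries, 0.803% of those of Amd1, and each Amd pseudogene at most 0.401%.

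Srm, spermidine synthase (ENSMUSG00000006442, chr4:148591503-148594993, plus strand), showed the largest rise of the 10 genes in ILC2s. It was at 9.83, 7.11 and 9.11 CPM alone and at 39.1, 33.9 and 33.6 CPM with eosinophils. The groups lay far apart, with a log2 fold change of 2.02 (SE 0.096, edgeR adjusted p = 2.5e-17). Eosinophils held 16.6, 16.7 and 23.7 CPM alone and 20, 19.3 and 17.6 CPM with ILC2s. The third library of eosinophils alone was the highest and the others were alike, so the groups overlapped (log2 fold change -0.03, SE 0.13, edgeR adjusted p = 0.899). As for Odc1, ILC2s had less Srm than eosinophils alone (log2 fold change -1.12, SE 0.15, edgeR adjusted p = 8.8e-06) and more in coculture (0.90, SE 0.085, edgeR adjusted p = 9.5e-11).

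Sms, spermine synthase (ENSMUSG00000071708, chrX:157443855-157492287, minus strand), was at 66.4, 64.1 and 65.1 CPM in ILC2s alone and at 103, 93.7 and 92.2 CPM with eosinophils. All cocultured ILC2 libraries were higher (log2 fold change 0.56, SE 0.048, edgeR adjusted p = 2.0e-11). Eosinophils held 34.3, 36.8 and 34.6 CPM alone and 39.7, 32.7 and 40.8 CPM with ILC2s. Their values overlapped (log2 fold change 0.07, SE 0.094, edgeR adjusted p = 0.664). Besides Arg1, Sms was the only member called higher in ILC2s than in eosinophils both alone (log2 fold change 0.89, SE 0.066, edgeR adjusted p = 7.9e-09) and in coculture (1.35, SE 0.07, edgeR adjusted p = 6.3e-17). The pseudogene Sms-ps had 244 counts, 1.62% of those of Sms.

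Sat1, the acetyltransferase of polyamine breakdown (ENSMUSG00000025283, chrX:155213132-155216449, minus strand), ran the other way. It was at 96.8, 96.5 and 98.0 CPM in ILC2s alone and at 45.0, 40.2 and 44.4 CPM with eosinophils. Each cocultured ILC2 library was below each library of ILC2s alone, and Sat1 fell by 1.18 on the log2 scale (SE 0.05, edgeR adjusted p = 1.5e-18). Eosinophils had 406, 364 and 406 CPM alone and 421, 385 and 406 CPM with ILC2s, which overlapped (log2 fold change 0.01, SE 0.06, edgeR adjusted p = 0.891). Sat1 was 4.02-fold lower in ILC2s than in eosinophils alone (edgeR adjusted p = 1.2e-13) and 9.41-fold lower in coculture (edgeR adjusted p = 9.1e-29).

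Over the list, 7 of the 10 genes were called higher and 2 lower in ILC2s with eosinophils, at an edgeR adjusted p under 0.05. All 10 had passed the filter on low counts in every comparison, Arg2 between cell types only through the eosinophil libraries, where it is higher. Of the 14438 genes tested in this comparison 36.8% were called higher and 35.6% lower, 72.4% in all, so a call by itself was common. The median log2 fold change was 0.61 over the 10 genes and 0.00 over all genes tested. In eosinophils with ILC2s 1 member (Oaz2) was called higher and 3 lower (Arg1, Odc1 and Azin1), where 11.4% of 13109 genes were higher and 13.5% lower, 24.9% in all. The median was 0.04 for the members and 0.00 for all genes. Of the 3, only Odc1 was called lower without the first library of eosinophils alone, or without the first or second of eosinophils with ILC2s. With library totals 2 members were lower, and 58.0% of all calls in the eosinophil comparison were rises, against 45.7% with TMM.

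Between cells cultured alone, 2 members (Arg1 and Sms) were called higher in ILC2s and 8 lower, with 40.8% of 14525 genes higher and 39.9% lower, 80.7% in all. The member median was -1.05 and that of all genes 0.03. Between cocultured cells 4 members were higher in ILC2s (Arg1, Odc1, Srm and Sms) and 5 lower, with 43.6% of 14634 genes higher and 40.5% lower, 84.0% in all, and medians of -0.07 and 0.05. With library totals 7 members were higher and 3 lower there. That scaling moved the median of all genes by 0.57 between cells alone and by 0.40 between cocultured cells on the log2 scale (0.23 and 0.20 with upper quartile scaling), and by -0.16 in the ILC2 coculture comparison. Rises then made up 70.1% of calls between cells alone, against 50.5% with TMM, and 65.8% between cocultured cells, against 51.8%. These comparisons share libraries with the coculture comparisons, so their values are given side by side only.

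**Figure D2:**
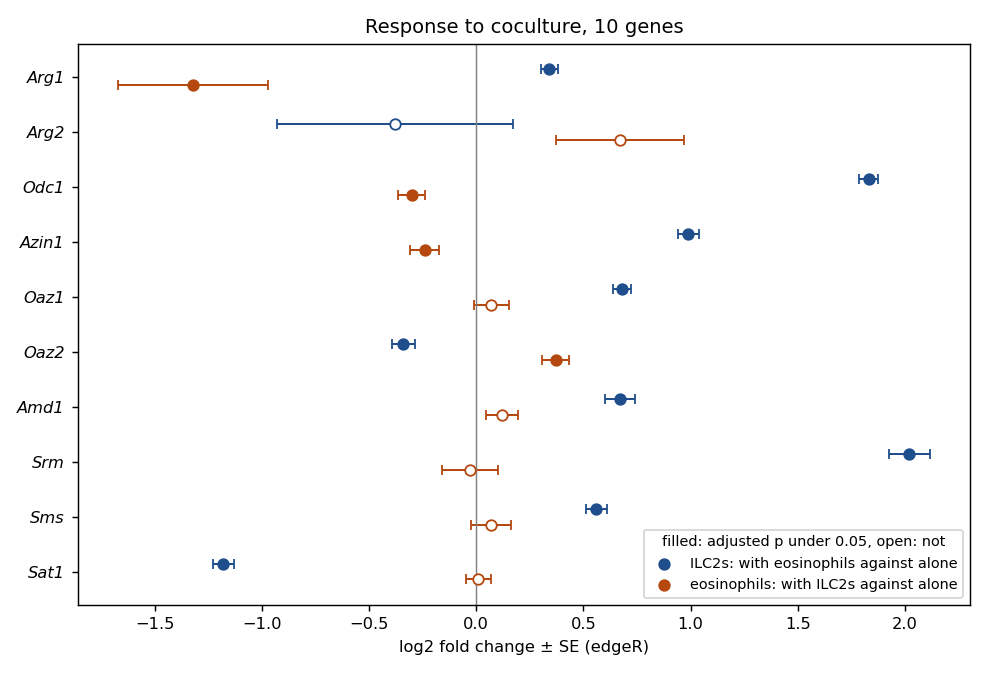
Log2 fold change of each of the 10 genes with coculture, for ILC2s (ILC2s with eosinophils against ILC2s alone) and for eosinophils (eosinophils with ILC2s against eosinophils alone), with bars of 1 SE from edgeR on 3 against 3 libraries (filled: adjusted p under 0.05). Srm at 2.02 and Odc1 at 1.83 lie far to the right in ILC2s and near or below 0 in eosinophils, and Sat1 at -1.18 lies to the left in ILC2s and at 0.01 in eosinophils.

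The difference between the responses of the cell types was tested in 1 fit of all 12 libraries, as the log2 fold change of ILC2s minus that of eosinophils. It was positive and called for 7 members and negative and called for 2, where 26.8% of 15745 genes were called positive and 24.8% negative, 51.5% in all. With library totals 39.6% of all calls were positive, against 51.9% with TMM, the median of all genes moved by -0.19, and the counts of members were again 7 and 2. Odc1 had the largest difference among the members, 2.11 (SE 0.079, edgeR adjusted p = 2.0e-16), followed by Srm at 2.03 (SE 0.18, edgeR adjusted p = 1.4e-09). Sat1 had the most negative one among those called, -1.21 (SE 0.082, edgeR adjusted p = 1.2e-11). The antizymes differed in opposite directions, Oaz1 by 0.59 (SE 0.10, edgeR adjusted p = 3.4e-05) and Oaz2 by -0.73 (SE 0.084, edgeR adjusted p = 8.5e-08). Arg2 did not pass the test (-1.08, SE 0.69, edgeR adjusted p = 0.203), though it did without the first library of ILC2s with eosinophils (-2.11, edgeR adjusted p = 0.0186). Arg1 differed by 1.63 (SE 0.25, edgeR adjusted p = 6.3e-06), mostly through its fall at low counts in eosinophils.

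RNA from the partner cell was low in ILC2 libraries. The median level of 16 eosinophil markers there, as a share of that in cocultured eosinophils, was 0.0344% ± 0.00894 (SD, n = 3) with eosinophils and 0.0315% ± 0.018 (SD, n = 3) alone (exact two-sided permutation p = 0.9). At that share, the eosinophil level of Odc1 amounts to 0.0315 CPM and that of Srm to 0.00557 CPM by library totals, beside measured means of 174 and 39.7 CPM in cocultured ILC2s. Neutrophil markers were higher in the cocultured ILC2 libraries, summing to 0.0872 to 0.454 CPM alone and to 1.89 to 6.34 CPM with eosinophils over 9 genes, mostly from Mpo, with S100a8 and S100a9 without a count in both groups. Their part in the rises was not tested.

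Levels of different genes were compared per kilobase of merged exon length. On this scale Arg1 was the most abundant member in ILC2s, at 260 CPM per kb ± 9.46 (SD, n = 3) alone and 330 ± 14.8 (SD, n = 3) with eosinophils. In eosinophils Oaz1 came first, at 181 CPM per kb ± 23.4 (SD, n = 3) alone and 195 ± 13.8 (SD, n = 3) with ILC2s, and Sat1 second, at 141 ± 8.67 and 146 ± 6.52. Odc1 moved from the fifth place among the members in ILC2s alone (12.8 CPM per kb ± 0.35) to the third with eosinophils (45.8 ± 1.21). Srm moved from the ninth (5.43 ± 0.88) to the fourth (22.2 ± 1.95), and Sat1 from the third (35.0 ± 0.302) to the sixth (15.6 ± 0.934). These places depend on the length taken. Merged exons and longest transcript hold 2774 and 1352 bases for Sat1, 2558 and 2526 for Oaz1, and 1599 and 1338 for Srm. The order of Sat1 and Oaz1 in eosinophils, and of Sat1 and Srm in cocultured ILC2s, therefore rests on merged exon length.

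Ratios within a library, also per kilobase, set paired members against each other. Odc1 stood at 1.79 to 1.87 times Azin1 in ILC2s alone and at 3.21 to 3.27 times in ILC2s with eosinophils, since Odc1 rose more. In eosinophils this ratio was 2.26 to 2.72 alone and 2.34 to 2.40 with ILC2s, which overlapped. Oaz1 stood at 5.16 to 5.63 times Oaz2 in ILC2s alone and at 10.6 to 11.4 times with eosinophils. In eosinophils it went the other way, from 4.40 to 5.34 alone to 3.77 to 4.02 with ILC2s, also without overlap. Arg1 stood at 619 times Arg2 or more in every ILC2 library, and this ratio is imprecise because Arg2 had 1 to 17 counts there. In eosinophils the ratio of Arg1 to Arg2 was 1.03 to 1.89 alone and 0.209 to 0.547 with ILC2s.

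**Figure D3:**
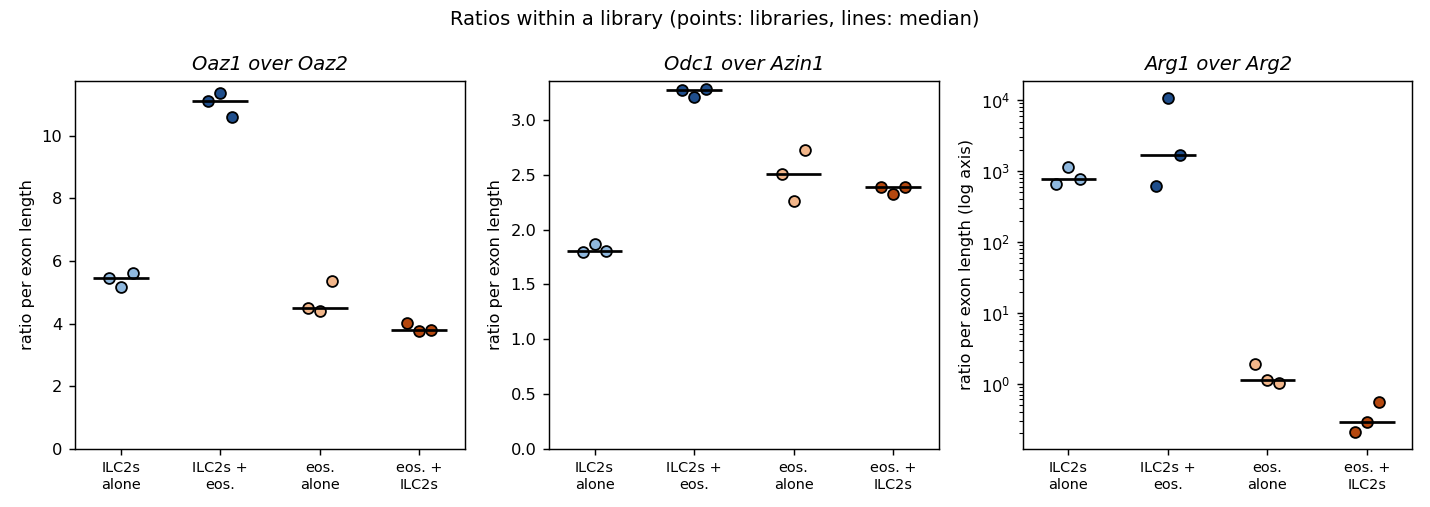
Ratios of CPM per kilobase of exon between paired genes (Arg1 to Arg2, Oaz1 to Oaz2, Odc1 to Azin1), 1 point per library and a line at the median, by group, with a logarithmic axis for Arg1 to Arg2 and linear axes for the others. The ratio of Oaz1 to Oaz2 is 10.6 or more in all 3 libraries of ILC2s with eosinophils and 5.63 or less in all 9 others.

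Genes around the pathway, from 5 lists of 51 genes, were read in the same fits. There 72.4% of all genes tested were called in ILC2s and 24.9% in eosinophils, the background for the counts of each list. Of 12 tested genes of arginine uptake, synthesis and other uses, 3 were higher and 3 lower in ILC2s with eosinophils. Gatm, which transfers the amidino group of arginine to glycine in creatine synthesis, rose from 0.0479, 0.18 and 0.419 CPM to 7.18, 7.31 and 6.32 CPM, a log2 fold change of 4.84 (SE 0.29, edgeR adjusted p = 7.1e-15), from 17 to 488 counts. It passed the filter on low counts only through the cocultured group, and its log2 fold change was 5.82 without the third library of ILC2s alone. The arginine transporter Slc7a1 rose from 31.0, 32.8 and 32.4 CPM to 78.9, 72.7 and 60.7 CPM (log2 fold change 1.13, edgeR adjusted p = 1.2e-14), and the transporter heavy chain Slc3a2 rose by 0.42. Ass1, argininosuccinate synthase, fell by 0.58 on the log2 scale (edgeR adjusted p = 2.0e-10), as did the transporters Slc7a6, by 0.20, and Slc7a3, by 0.70, the last named after its values were seen. Nos2, the inducible nitric oxide synthase that competes with arginase for arginine, was not tested because of low counts: 3 and 9 counts over the ILC2 groups and 1 and 3 over the eosinophil groups.

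In eosinophils with ILC2s, 1 of 12 tested genes of that list was higher and 3 were lower. Slc3a2 rose from 224, 203 and 245 CPM to 408, 394 and 455 CPM (log2 fold change 0.88, edgeR adjusted p = 1.0e-06). Slc7a6 fell by 1.01 (edgeR adjusted p = 2.9e-05), Gatm by 0.74 (edgeR adjusted p = 2.9e-04) and Ddah2, named after its values were seen, by 1.01 (edgeR adjusted p = 0.00383). Gatm thus rose in 1 cell type and fell in the other, and the responses differed by 5.56 (edgeR adjusted p = 3.5e-13), or by 6.54 without the third library of ILC2s alone.

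Of 5 tested genes that link ornithine with proline and glutamate, 3 rose and 1 fell in ILC2s. Oat, ornithine aminotransferase, rose from 25.8, 25.7 and 24.1 CPM to 85.1, 78.8 and 72.6 CPM (log2 fold change 1.64, SE 0.062, edgeR adjusted p = 8.4e-20). The proline-forming reductase Pycr1 rose from 0.0479, 0.36 and 0.209 CPM to 2.08, 2.30 and 2.09 CPM, or 15 to 152 counts (log2 fold change 3.33, edgeR adjusted p = 2.6e-08), and Aldh18a1 by 0.36. Pycr1 passed the filter on low counts only through the cocultured group, where it is high. Aldh4a1 fell by 0.47. In eosinophils 1 of the 5 rose and none fell: Prodh, proline dehydrogenase, went from 57.2, 49.3 and 55.2 CPM to 97.7, 101 and 111 CPM (log2 fold change 0.91, edgeR adjusted p = 8.5e-07). Aldh18a1 in eosinophils had a log2 fold change of 0.22 (edgeR adjusted p = 0.0943), called with library totals (0.28, edgeR adjusted p = 0.0382) and with a fit of all 12 libraries (0.25, 0.0216). Prodh in ILC2s had a log2 fold change of -0.39 (edgeR adjusted p = 0.0871), called with upper quartile scaling (edgeR adjusted p = 0.0453) and library totals (0.0172).

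Of the other polyamine enzymes and transporters, 2 of 6 tested genes rose and 3 fell in ILC2s. The antizyme inhibitor Azin2 rose from 0.815, 0.54 and 1.15 CPM to 4.00, 2.44 and 3.65 CPM (log2 fold change 1.96, edgeR adjusted p = 3.7e-07), as did the transporter Atp13a3, by 0.29. Paox, the oxidase acting on acetylated polyamines, fell by 0.85 (edgeR adjusted p = 1.3e-08), the lysosomal polyamine exporter Atp13a2 by 0.26 and the antizyme Oaz3, named after its values were seen, by 2.05. In eosinophils 1 of 5 tested rose and none fell. This was Atp13a2, from 99.4, 91.4 and 104 CPM to 244, 262 and 273 CPM (log2 fold change 1.37, SE 0.066, edgeR adjusted p = 3.9e-09). Atp13a3 had a log2 fold change of 0.22 in eosinophils that missed the threshold (edgeR adjusted p = 0.073), but passed it without the second library of eosinophils alone (0.30, edgeR adjusted p = 0.00529), with library totals (0.0282), with no filter on low counts (0.0113), with the replicate number as a block (0.00177) and with a fit of all 12 libraries (0.0074).

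Amd1 draws on S-adenosylmethionine, and the synthases release methylthioadenosine, which a salvage path returns to methionine. Of 10 tested genes of S-adenosylmethionine and methylthioadenosine metabolism, not all of them on this path, 7 rose and 2 fell in ILC2s. Of all genes tested there, 36.8% rose and 35.6% fell. Ahcy, S-adenosylhomocysteine hydrolase, rose from 32.5, 29.3 and 32.0 CPM to 196, 184 and 192 CPM (log2 fold change 2.60, SE 0.047, edgeR adjusted p = 3.4e-27). Mtr, methionine synthase, rose by 0.93 and Mat2a, which makes S-adenosylmethionine, by 0.50. Adi1 and Mat2b, named after their values were seen, fell by 0.69 and 0.36. In eosinophils 3 of the 10 rose and none fell: Mat2a by 0.44 (edgeR adjusted p = 9.1e-05), Mtr by 0.47 (0.0294) and the salvage enzyme Mri1 by 0.45 (0.0409). The call of Mtr was lost without the first or the third library of eosinophils alone (0.0951 and 0.0835) or the first or second of eosinophils with ILC2s (0.087 and 0.101). That of Mri1 was lost without the second library of eosinophils alone (0.11) or any library of eosinophils with ILC2s (0.0566 to 0.124).

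Spermidine also supplies the hypusine residue of the translation factor eIF5A. Eif5a rose in ILC2s from 244, 214 and 219 CPM to 728, 652 and 650 CPM (log2 fold change 1.58, SE 0.048, edgeR adjusted p = 5.7e-22). In eosinophils it was at 616, 572 and 709 CPM alone and 659, 595 and 633 CPM with ILC2s, with a log2 fold change of -0.04 (edgeR adjusted p = 0.763). The enzymes that place the residue did not pass the test in either cell: Dohh had log2 fold changes of 0.08 in ILC2s and 0.19 in eosinophils, and Dhps -0.06 and -0.03. Eif5a2 fell by 0.27 in ILC2s (edgeR adjusted p = 0.00702), a call lost without the third library of ILC2s alone (0.0618) or the second of ILC2s with eosinophils (0.0655), and in a fit of all 12 libraries (0.0517). Of the 4 genes of this list 1 rose and 1 fell in ILC2s, and none passed in eosinophils. Eif5a and Ahcy have processed copies elsewhere in the genome that could share their reads, so their values are uncertain to that extent.

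**Figure D4:**
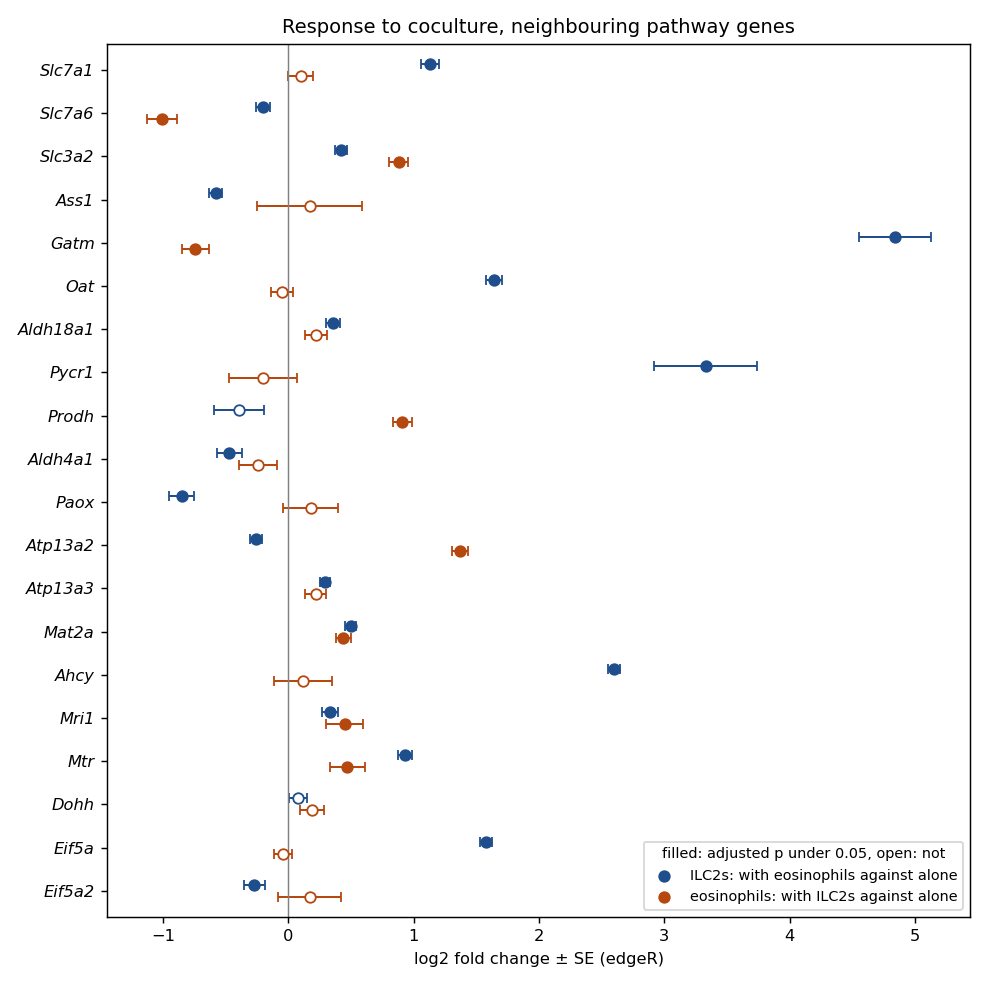
Log2 fold changes with coculture of the pathway genes named by smallest p and tested in both cell types, for ILC2s and for eosinophils, with bars of 1 SE from edgeR on 3 against 3 libraries (filled: adjusted p under 0.05). In ILC2s Gatm lies at 4.84 and Pycr1 at 3.33, from 17 and 15 counts in ILC2s alone (Gatm at 5.82 without the third library of that group), and Ahcy at 2.60, and in eosinophils Atp13a2 lies at 1.37.

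Genes with profiles close to those of Arg1 and Odc1 were sought by the root mean square difference of centred log2 CPM over the 12 libraries, among the 9410 genes averaging at least 8 CPM. For Odc1 the closest were Hpf1 (0.10), Tex30 (0.11) and Hsd17b12 (0.12). Hpf1 had group means of 17.4 CPM in ILC2s alone, 54.1 in ILC2s with eosinophils, 44.3 in eosinophils alone and 37.1 in eosinophils with ILC2s, the same order of groups as Odc1. For Arg1 the close profiles included Tnfsf8 (0.39) and Il12rb1 (0.42), at larger distances. Il12rb1 had means of 161 and 246 CPM in ILC2s alone and with eosinophils, and 0.714 and 0.427 CPM in eosinophils alone and with ILC2s. The libraries of a group share their cell type and culture, so these are descriptions of 12 libraries.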

How the data were processed

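RNA-seq counts of 12 mouse libraries were used, 3 in each of 4 groups taken from the labels. The table holds whole read counts for every gene, deposited by the authors without normalization. Per the submitters' processing notes the tools were bcl2fastq 2.17, Trimmomatic 0.36, STAR 2.5.2b, featureCounts and Subread 1.5.2, with build mm10. How strand and reads with several matches were handled, and the annotation release, is not given in the sources used here. GENCODE M21 (mm10) gave a symbol to 48970 of 49315 identifiers, and 66 symbols stood on more than 1.

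Each comparison was fitted in edgeR 4.0.16 (R 4.3.3) with filterByExpr (minimum count 10), TMM scaling, the quasi-likelihood F test and Benjamini-Hochberg adjustment over all genes tested. Cell type and coculture comparisons used their 6 libraries, and the difference of responses used all 12. Genes with an adjusted p under 0.05 were called. The SE is the size of the log2 fold change over the root of F. CPM were scaled by TMM over 12 libraries, except marker sums and partner RNA shares, which used library totals. Partner markers had a mean of 10 CPM or more in the cocultured partner and, in the other cell cultured alone, 1% of that or less.

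Replicates were not duplicates (chi-square per degree of freedom 2.57 to 19.5). The fits were tested on simulated data. The 10 genes and the lists were chosen with earlier results of these data known. Named besides the members were the 3 tested genes of smallest p per list and coculture comparison, copies of members, label markers and the 3 closest profiles of Arg1 and Odc1. A gene of the lists and a close profile are not reported here. Alternatives were RLE, upper quartile and library total scaling, other filters, DESeq2 1.42.0, limma-voom (limma 3.58.1), a replicate block, a fit of all libraries and leaving out each library.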

Additional observations from a re-analysis of the deposited data

Results flagged for a closer look

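In these results the coculture response of ILC2s and that of eosinophils differed by the edgeR test of the difference itself. Each value is the log2 fold change of ILC2s minus that of eosinophils, over all 12 libraries, with its adjusted p. Groups of 3 libraries were not examined for single outlying samples. All members but Arg2, 9 of 10, met this rule, and 51.5% of all genes tested did so.

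Among the members the difference was positive for Odc1 (2.11, edgeR adjusted p = 2.0e-16), Srm (2.03, 1.4e-09), Arg1 (1.63, 6.3e-06), Azin1 (1.21, 1.7e-11), Oaz1 (0.59, 3.4e-05), Amd1 (0.52, 1.6e-04) and Sms (0.47, 5.8e-04). It was negative for Sat1 (-1.21, edgeR adjusted p = 1.2e-11) and Oaz2 (-0.73, 8.5e-08). Arg1, Odc1 and Azin1 rose in ILC2s and fell in eosinophils, and Oaz2 fell in ILC2s and rose in eosinophils. The eosinophil falls of Arg1 and of Azin1 each missed the threshold in 3 of the 6 fits that left out 1 library. That of Azin1 also missed it with library totals (edgeR adjusted p = 0.0658).

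Of the 38 tested genes of the pathway lists 21 differed, a share close to that of all genes, and 14 of these were among the 21 genes named for their small p in these libraries. The difference was positive for Gatm (5.56, edgeR adjusted p = 3.5e-13), Pycr1 (3.51, 2.7e-06), Azin2 (2.5, 0.0011), Ahcy (2.45, 1.8e-10), Oat (1.67, 1.8e-11), Eif5a (1.59, 3.2e-12), Slc7a1 (1.01, 5.5e-07), Slc7a6 (0.79, 7.3e-06) and Mtr (0.44, 0.0174). It was negative for Atp13a2 (-1.65, edgeR adjusted p = 9.8e-14), Prodh (-1.32, 2.4e-06), Paox (-1.05, 2.6e-04), Ass1 (-0.79, 0.0446) and Slc3a2 (-0.47, 1.9e-04). The difference for Ass1 missed the threshold in 8 of the 12 fits that left out 1 library, at adjusted p of 0.0592 to 0.255, and in limma-voom (0.0972). Azin2 had too few counts for the test in eosinophils and entered the fit of all libraries through the ILC2 libraries, where it is higher, so its response in eosinophils was not tested. The value for Gatm was 6.54 without the third library of ILC2s alone. That for Mtr missed it with library totals (0.19) and without the first library of ILC2s with eosinophils (0.0509), the second of eosinophils alone (0.112) or the third of eosinophils with ILC2s (0.0675).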

How the results depend on the processing

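For the members, 777 of 799 recomputed log2 fold changes kept their direction and side of the threshold, and for named pathway genes 977 of 1035. In eosinophils 1 to 3 members were called lower when a library was left out, and 948 to 1604 genes were higher, against 2276 with a fit of all 12 libraries and 1493 in the report. Library totals left 3664 genes lower in ILC2s alone than in eosinophils alone, against 5796. Between cocultured cells library totals gave 7 members higher and 3 lower, and upper quartile scaling 3 lower.

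The log2 values that changed sign with library totals were Dohh in ILC2s (-0.08), Srm (0.03), Oat (0.01) and Eif5a (0.02) in eosinophils, Oaz1 (0.17) and Amd1 (0.15) between cocultured cells, and the differences of responses for Aldh18a1 (-0.07), Atp13a3 (-0.14) and Mat2a (-0.15). Upper quartile scaling gave -0.02 for Atp13a3 and -0.03 for Mat2a. Leaving out libraries gave ranges of -1.41 to 0.13 for Arg2 in ILC2s, and in eosinophils of -0.01 to 0.16 for Oaz1, -0.12 to 0.15 for Srm, -0.03 to 0.05 for Sat1, -0.10 to 0.69 for Ass1, -0.14 to 0.00 for Oat, -0.09 to 0.34 for Ahcy and -0.10 to 0.05 for Eif5a. For differences of responses they were -0.03 to 0.13 for Atp13a3, -0.00 to 0.08 for Mat2a and -0.24 to 0.04 for Mri1. The cause was not tested.

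No residual correlation of same-numbered libraries exceeded 0.0967, the value for the second libraries of the eosinophil groups and the largest of those computed. These residuals were taken from group means of 3 libraries, so they cannot decide whether replicate numbers pair the libraries. With the replicate number as a block, 7 members were higher and 2 lower in ILC2s and 1 higher and 3 lower in eosinophils. In eosinophils the block gave 2029 genes higher and 2139 lower, against 1493 and 1771 without it. Depth limits Arg2, and Arg1 in eosinophils, which rest on 25 to 134 counts a group.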
